A study of Caenorhabditis elegans with 18 samples.

Results

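The wrt (warthog), grd (groundhog) and grl (ground-like) genes of the nematode Caenorhabditis elegans, which encode Hedgehog-related proteins, were followed across 18 RNA-seq libraries. Every gene in the deposited table whose symbol is wrt, grd or grl followed by a number was included, whatever its level. This gave 57 of 20953 genes, namely 10 wrt, 16 grd and 31 grl genes. The animals were wild type (strain N2), nhr-10 deletion mutants (allele tm4695, with no strain name in the labels) or nhr-68 deletion mutants (strain VC1527, allele gk708). Each genotype was grown on plates with no supplement (untreated), with vitamin B12 at 20 nM, or with the same B12 plus propionate at 40 mM. The treatment lasted 48 hours by the series' design text, and until the L4 stage by the labels. Each of the 9 groups had 2 replicate libraries, each from about 3000 whole animals of the last larval stage (L4). All animals, controls included, came from cultures kept without vitamin B12 and synchronized by L1 arrest. Each mutant was 1 allele, and any outcrossing is not given in the sources used here. The labels do not say whether replicates were separate cultures, so the p-values measure the spread between these libraries, which may be technical.

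In other animals Hedgehog proteins are secreted signals that bind the membrane protein Patched and release Smoothened. C. elegans has no Smoothened orthologue, but it has expanded families of Hedgehog-related secreted proteins and of patched and patched-related (ptr) membrane proteins. Warthog and groundhog proteins carry N-terminal domains of their own, and some of them also carry the Hog domain through which Hedgehog proteins cut themselves, whereas ground-like proteins have a ground-like domain only. Many of these genes are transcribed in the epidermis, in seam cells, in glia and in lining epithelia, often in step with the moulting cycle, and several have been linked to the cuticle and the apical extracellular matrix. nhr-10 and nhr-68 encode nuclear hormone receptors that switch on the propionate shunt, the route by which worms break down propionate when vitamin B12 is scarce.

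The wrt, grd and grl genes differed widely in level. FPKM, the unit of the deposited values, is fragments scaled to transcript length and to the mapped fragments of the library, so levels can be compared between genes. Averaged over the 18 libraries, 9 genes stood at 100 FPKM or more, 15 between 10 and 100, 13 between 1 and 10 and 20 under 1. The highest mean levels were those of grl-16 (764.9 FPKM), grd-5 (738), grd-14 (255), grl-4 (226) and grd-6 (172), followed by wrt-4 (141), grl-5 (134), grl-7 (121), grl-21 (113) and grl-27 (96.2). The families had median levels of 22.4 FPKM for wrt, 8.13 for grd and 1.34 for grl. Together the 57 genes made up between 0.230% and 0.460% of a library's summed FPKM. They lie on all chromosomes, with 28 on V, 12 on IV, 9 on X, 4 on III and 2 each on I and II (WBcel235, Ensembl annotation). All 57 are annotated as protein coding. The animals were whole, so for every gene here fewer cells of a type and less RNA per cell cannot be told apart.

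**Figure D1:**
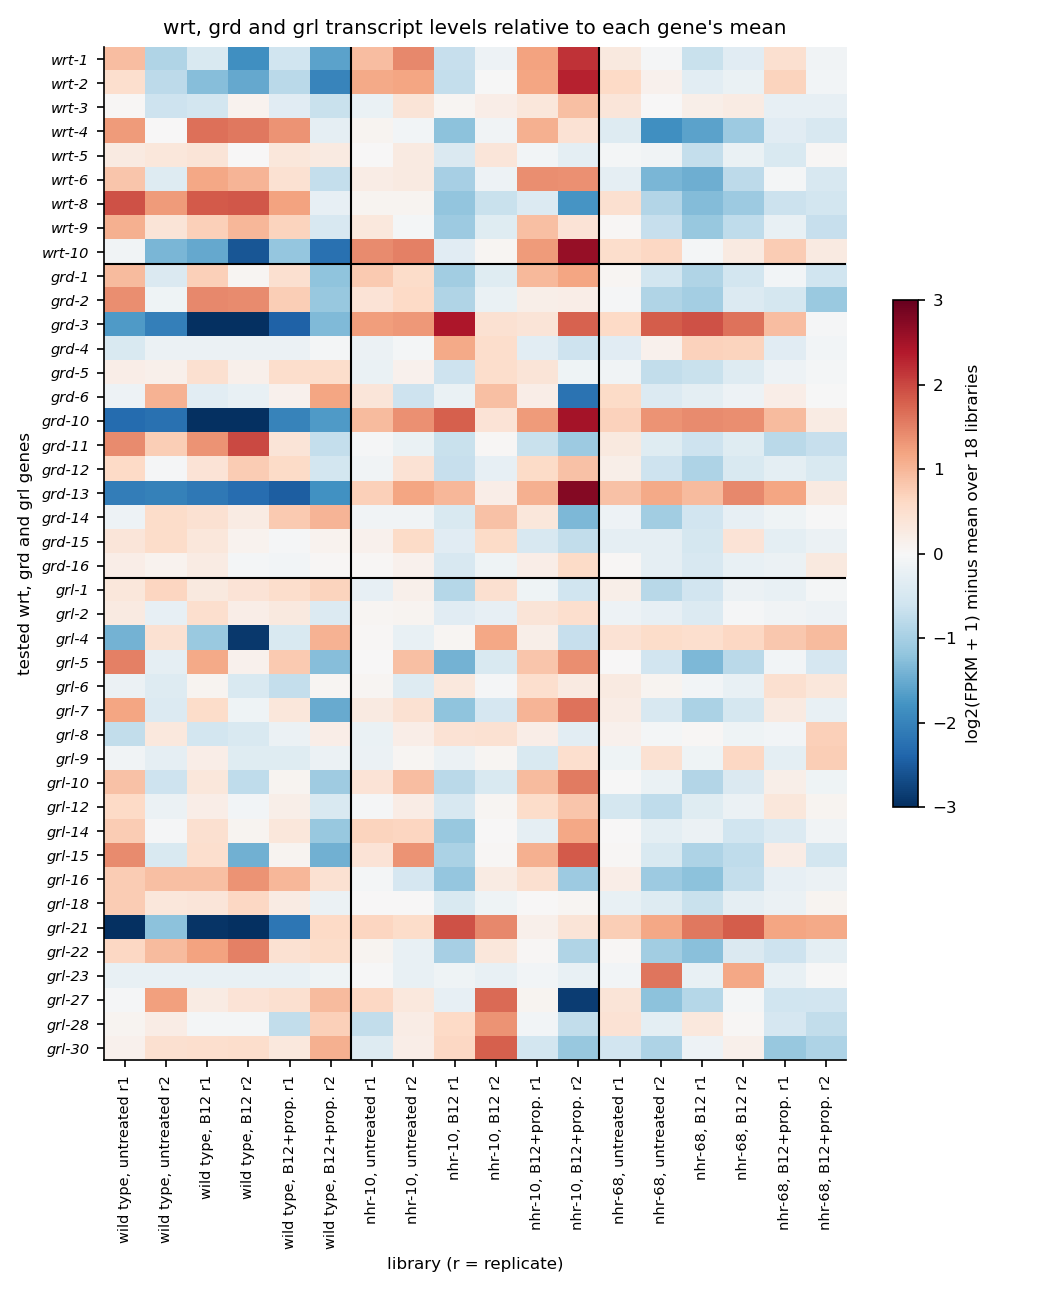
Levels of the 42 tested wrt, grd and grl genes in each of the 18 libraries, as log2(FPKM + 1) minus the gene's mean over all libraries; rows are genes, columns are libraries, red is above and blue below the mean, and the scale is capped at 3 in either direction. grd-3, grd-10 and grd-13 are blue in all 6 wild type libraries and red in nearly all 12 mutant libraries.

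For the tests, levels were put on the scale log2(FPKM + 1), which understates changes of low genes. A gene was tested where it reached 1 FPKM in at least 2 libraries, which 15575 genes did. Of the 57 genes 42 passed this filter, namely 9 wrt, 13 grd and 20 grl genes. The other 15 were wrt-7, grd-7, grd-8, grd-9, grl-3, grl-11, grl-13, grl-17, grl-19, grl-20, grl-24, grl-25, grl-26, grl-29 and grl-31. None of them exceeded 1.72 FPKM in any library, and none was at 0 in all 18. Differences were estimated with limma and p-values were adjusted over all 15575 genes (Benjamini-Hochberg), with a gene called at an adjusted p under 0.05.

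The 42 tested genes varied more between groups than the table as a whole. The range between a gene's highest and lowest group mean had a median of 1.86 on the log2 scale, against 0.73 over all tested genes. It exceeded 1 in 34 of the 42 (81%) and in 29.2% of all genes. The widest ranges in each family were those of grd-3 (5.23), grd-10 (4.94) and grd-13 (4.13), of grl-21 (5.11), grl-4 (2.90) and grl-15 (2.31), and of wrt-10 (3.99), wrt-2 (3.15) and wrt-8 (3.05). The narrowest were those of grl-9 (0.52), grl-2 (0.74), grd-16 (0.74), grl-6 (0.75) and wrt-5 (0.77). wrt-5, which is needed for epidermal development, stayed between 9.65 and 21.7 FPKM in all libraries and was called in no comparison. Among the 42, 16 had their lowest group mean in nhr-68 mutants on B12, where 16.6% of all genes had theirs. The highest group mean was that of nhr-10 mutants on B12 with propionate in 16 of the 42 and in 21.8% of all genes.

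The libraries held an estimated 12900000 to 14500000 fragments, judged from the spacing of low FPKM values, so that 1 FPKM over 1 kb rests on about 13.5 fragments. nhr-68 stood at 1.71 to 14.95 FPKM in the 6 nhr-68 mutant libraries against 48.7 to 108 in wild type, and nhr-10 at 6.14 to 10.3 in nhr-10 mutants against 12.2 to 33.5 in wild type. The lower nhr-10 level was not called (limma adjusted p = 0.166, 0.066 and 0.052 untreated, on B12 and with propionate). nhr-68 was also low in nhr-10 mutants on B12 (5.18 and 13.06 FPKM) and with propionate (10.75 and 18.19), but not untreated (79.06 and 140). Both were called lower than wild type (limma -2.44 and -1.89, adjusted p = 0.00392 and 0.0107). 1 library, the propionate replicate 2 of nhr-10, stood apart. Its 6 vitellogenin genes (yolk proteins, made from the end of larval life) summed to 104 FPKM against 1213 in replicate 1, and its 18 moulting and apical matrix genes to 1978 against 1337. Replicates also differed in these lists elsewhere. In wild type the moulting sum was 1241 and 667 FPKM untreated and 926 and 468 on B12 with propionate, and the vitellogenin sum was 849 and 2627 untreated and 905 and 3519 with propionate. The leading 2 axes of 43 moulting, collagen and vitellogenin genes carried 54.5% and 37.8% of those genes' variance. The second separated the wild type libraries (-10.6 to -1.45) from the mutant libraries (0.83 to 5.88) without overlap, so genotype and this axis cannot be told apart. With both axes as covariates none of the 42 genes was called in any of the 22 comparisons, and in the 6 comparisons of a mutant with wild type the calls over all genes went from between 217 and 1532 to between 0 and 4.

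In several groups wrt, grd and grl genes differed between replicates by more than 2-fold more often than the table as a whole. In untreated wild type 16 of 42 (38.1%) differed by more than 2-fold between replicates on the log2(FPKM + 1) scale, against 4.92% of all genes. In wild type on B12 with propionate it was 20 of 42 (47.6%, against 6.43%), and in nhr-10 mutants on B12 13 (31%, against 6.3%). In nhr-10 mutants on B12 with propionate it was 11 (26.2%, against 5.09%) and in untreated nhr-68 mutants 9 (21.4%, against 2.83%). In wild type on B12 it was 6 (14.3%, against 3.35%). In nhr-68 mutants it was 1 on B12 (2.38%, against 1.65%) and 1 with propionate (2.38%, against 1.85%), near the share of all genes, and in untreated nhr-10 mutants it was 0, below the 2.69% of all genes.

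Genes moved in sets between replicates. In untreated wild type 11 of the 16 were lower in replicate 2 (grd-1, grd-2, grl-5, grl-7, grl-10, grl-15, wrt-1, wrt-2, wrt-4, wrt-6 and wrt-10) and 5 were higher (grd-6, grl-4, grl-8, grl-21 and grl-27). In wild type with propionate 15 were lower in replicate 2, of which 10 were among the 11, or 90.9% of the first set and 66.7% of the second. The 5 that were higher included grd-6, grl-4 and grl-21, 60% of each set. Over all tested genes the replicate differences of these groups correlated at 0.56, the highest of 36 pairs of groups. The shared shift was therefore not particular to wrt, grd and grl genes, and the matching overlap over all genes was not determined. For grl-21 the replicates were 7.21 and 28.9 FPKM untreated and 14.6 and 105 with propionate. For grl-15 the untreated replicates stood at 136 and 36.5, those on B12 at 72.7 and 17.97 and those with propionate at 53.4 and 18.1. Untreated and with propionate, replicate 2 held the higher grl-21 level and the lower grl-15 level. In both groups it was also the replicate with the lower moulting sum and the higher vitellogenin sum. On B12 alone replicate 2 was lower in grl-15 and also in grl-21 (8.15 and 3.77 FPKM). The moulting sums there were 1010 and 900 FPKM and the vitellogenin sums 819 and 629. grl-4 stood at 69.8 and 259 untreated and 86.3 and 24.4 on B12, with the higher value in a different replicate each time. grl-5 stood at 191 and 45.1 and grd-2 at 14.2 and 3.13 in wild type with propionate. In nhr-10 mutants the sets differed. On B12 with propionate grl-27 was at 84.3 and 10.1, grd-6 at 178 and 32.7 and grd-14 at 299 and 91.8, all lower in the library that stood apart. On B12 alone grl-27 was at 67.1 and 259 and grl-16 at 294 and 776, while grd-3 was at 99.2 and 24.9. In untreated nhr-68 mutants grl-27 was at 104 and 33.2 and wrt-4 at 83.6 and 29.8, and the widest gap in untreated nhr-10 mutants was that of grd-6, at 198 and 99.4. On B12 the nhr-68 replicates were closer, with grd-15 at 2.81 and 6.28, and with propionate grl-9 was at 0.22 and 1.47. The part that the stage of the animals has in these differences was not tested.

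**Figure D2:**
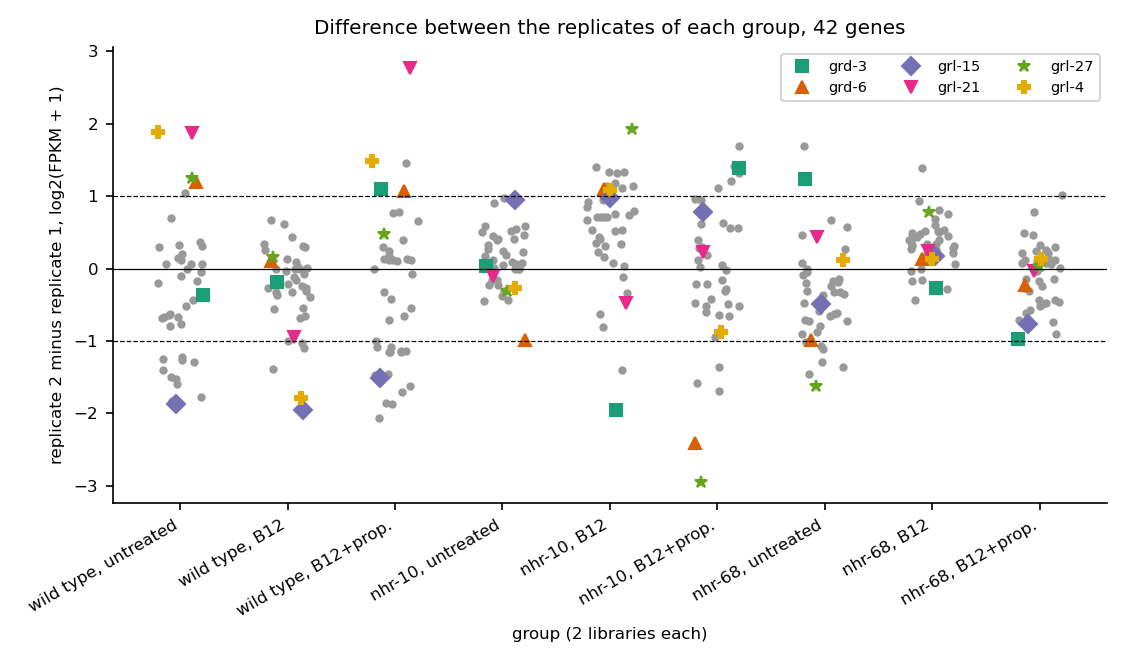
Difference between the replicates of each group (replicate 2 minus replicate 1, log2(FPKM + 1)) for the 42 tested genes, 1 point per gene and group, with dashed lines at a 2-fold difference. In wild type with propionate 20 of the 42 points lie outside the lines and in untreated nhr-10 mutants none does.

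Adjacent groundhog genes on chromosome IV were higher in both mutants than in wild type. grd-13 (IV, 3438312 to 3439507), grd-3 (IV, 3439655 to 3440453) and grd-10 (IV, 3441055 to 3441841) follow one another on the plus strand, 147 and 601 bp apart, with no annotated gene starting between them. All 12 mutant libraries lay above all 6 wild type libraries for each of these genes, a pattern that 1.5% of all tested genes showed. No other of the 42 genes did.

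grd-13 stood at 1.72 and 1.83 FPKM in untreated wild type, at 1.6 and 1.36 on B12 and at 1.05 and 2.23 with propionate. In nhr-10 mutants it was at 17.9 and 25.1, 21.8 and 12.04, and 23.1 and 76.6 under the same treatments. In nhr-68 mutants it was at 20.1 and 24.3, 21.1 and 30.04, and 25.01 and 12.9. The wild type libraries were all near the bottom of the measurable range, and the highest mutant value came from the nhr-10 library that stood apart. In limma the nhr-10 mutants exceeded wild type by 3.003 ± 0.47 untreated, 2.80 ± 0.47 on B12 and 4.07 ± 0.47 with propionate (log2 ± SE; adjusted p = 0.00749, 0.00527 and 0.000397). For nhr-68 mutants the differences were 3.06 ± 0.47, 3.40 ± 0.47 and 2.88 ± 0.47 (limma adjusted p = 0.00495, 0.00161 and 0.00938). Without replicate 2 of the nhr-10 mutants with propionate, the difference there was 3.23, with a limma adjusted p of 0.00287.

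grd-3 stood at 4.8 and 3.52 FPKM in untreated wild type, at 0.81 and 0.59 on B12 and at 2.5 and 6.47 with propionate. In nhr-10 mutants the values were 44.1 and 45.2, 99.2 and 24.9, and 23.6 and 63.5, and in nhr-68 mutants 27.2 and 65.6, 69.03 and 56.9, and 34.9 and 17.2. Wild type on B12 had the lowest values of all groups, and all mutant libraries lay above all wild type libraries. The difference from wild type was 3.16 ± 0.63, 4.91 ± 0.63 and 2.96 ± 0.63 in nhr-10 mutants (limma adjusted p = 0.0284, 0.00159 and 0.0139). In nhr-68 mutants it was 3.08 ± 0.63 and 5.23 ± 0.63 untreated and on B12 (limma adjusted p = 0.0183 and 0.00091), and with propionate it was 2.32 ± 0.63 and missed the threshold (limma adjusted p = 0.0676).

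grd-10 stood at 2.07 and 2.21 FPKM in untreated wild type, at 0.9 and 0.76 on B12 and at 2.8 and 3.68 with propionate. In nhr-10 mutants it was at 28.3 and 38.1, 51.7 and 19.03, and 35.9 and 84.01, and in nhr-68 mutants at 23.3 and 37.8, 39.6 and 38.6, and 28.5 and 17.1. As with its neighbours, the lowest mutant library (17.06) stood well above the highest wild type library (3.68). grd-10 and grd-13 were called in all 6 comparisons of a mutant with wild type. In nhr-10 mutants grd-10 exceeded wild type by 3.43 ± 0.44, 4.15 ± 0.44 and 3.73 ± 0.44 (limma adjusted p = 0.0017, 0.000767 and 0.000445). In nhr-68 mutants the difference was 3.29 ± 0.44, 4.46 ± 0.44 and 2.45 ± 0.44 (limma adjusted p = 0.0028, 0.000311 and 0.0149).

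The wild type values of these 3 genes rest on few fragments, an estimated 9 to 18 for grd-13, 5 to 60 for grd-3 and 6 to 31 for grd-10 in a library, against at least 101, 172 and 156 in the mutant libraries. The flanking genes were near the bottom of the measurable range in all libraries, so they cannot show whether the pattern extends beyond the cluster. srz-32 upstream stood between 0 and 0.08 FPKM in wild type and at 0 in all mutant libraries, and F09D12.2 downstream was between 0.67 and 1.51 in wild type and between 0.23 and 1.65 in the mutants. How the authors' program divided reads between similar neighbouring genes was not checked, because no sequence was used here.

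**Figure D3:**
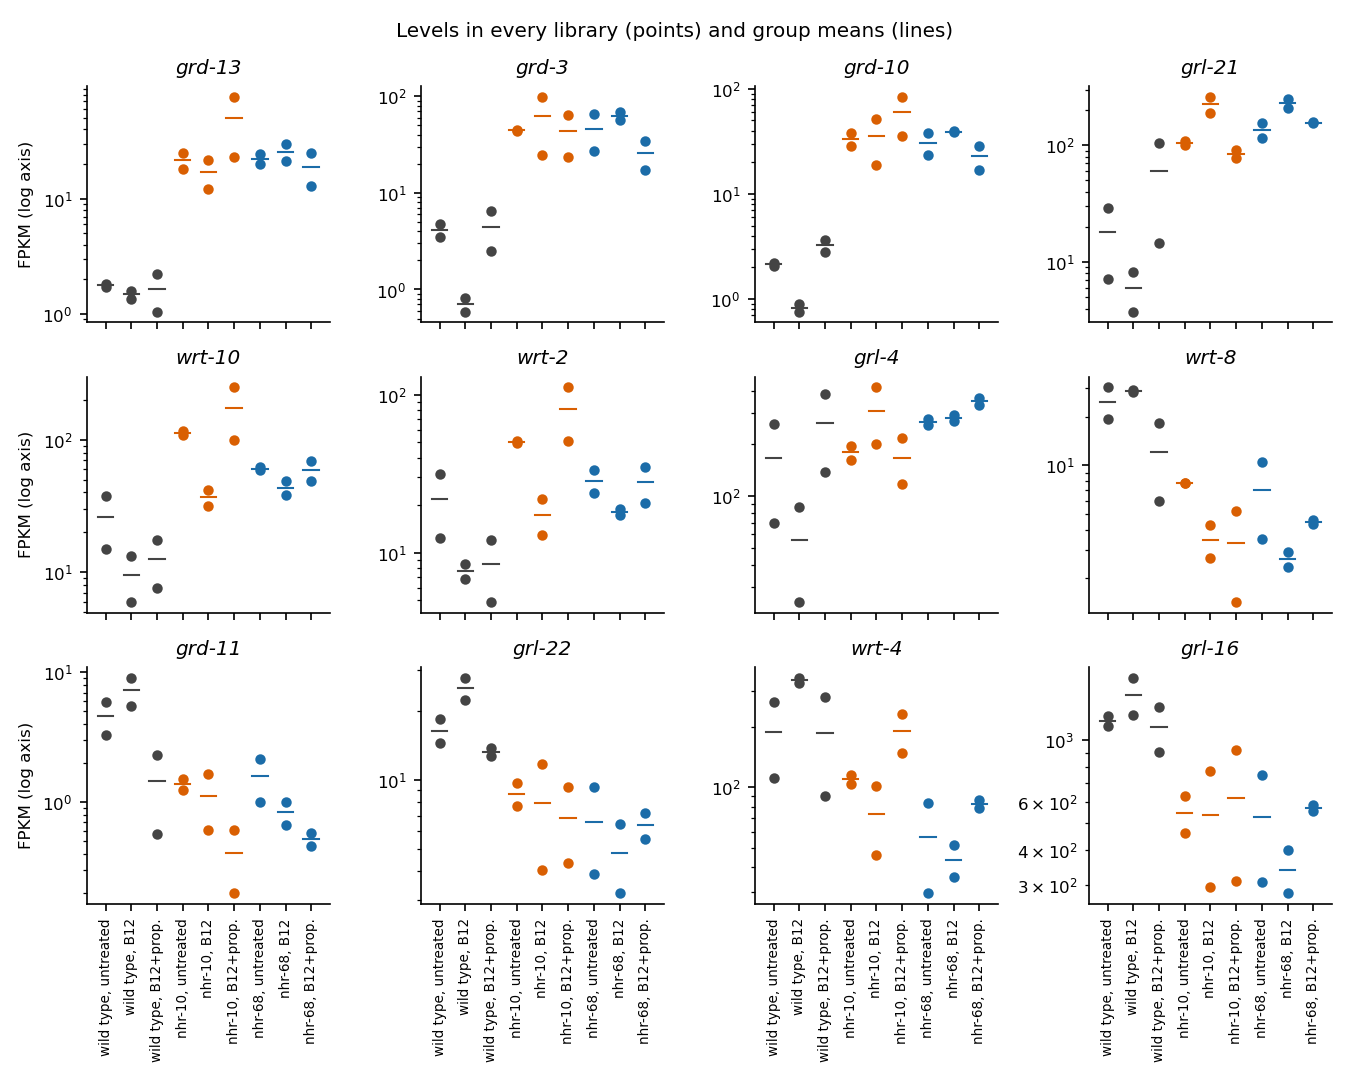
FPKM (log axis) of 12 wrt, grd and grl genes in each library, with 1 point per library and a line at the mean of each group of 2; wild type is grey, nhr-10 mutants orange and nhr-68 mutants blue. For grd-13, grd-3 and grd-10 no mutant point lies as low as any wild type point, and for grl-22 no mutant point lies as high as any wild type point.

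In untreated animals the grd cluster made up most of the calls. In nhr-10 mutants 3 of the 42 genes were higher (1.1% of all genes were) and 0 were lower (0.295% of all genes), the 3 being grd-13, grd-3 and grd-10. In nhr-68 mutants 4 were higher (2.44% of all genes), namely the same cluster and grl-21, and 1 was lower (3.58% of all genes), namely grl-18. The nhr-10 and nhr-68 comparisons share the wild type libraries.

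grl-21 (IV, 10737474 to 10738191) encodes a ground-like protein that in worms has been linked, with the patched-related protein PTR-24, to lipid storage and mitochondrial shape. Untreated, it stood at 7.21 and 28.9 FPKM in wild type, 109 and 101 in nhr-10 mutants and 116 and 157 in nhr-68 mutants. Both mutants lay above wild type with no overlap. The difference was 3.12 ± 0.71 (SE), adjusted p = 0.0272 in nhr-68 mutants, and 2.76 ± 0.71 with a limma adjusted p of 0.0871 in nhr-10 mutants. grl-18 (V, 5485631 to 5488866), which is used as a marker of inner labial socket glia, was low everywhere, at 2.89 and 1.89 FPKM in wild type, 1.32 and 1.3 in nhr-10 mutants and 0.95 and 0.76 in nhr-68 mutants. It was lower in nhr-68 mutants than in wild type, with a limma difference of -0.86 ± 0.23 (SE), adjusted p = 0.0447. The remaining 37 genes were not called in either mutant. Among them were wrt-8 with differences of -1.51 ± 0.52 in nhr-10 and -1.81 ± 0.52 in nhr-68 mutants (limma adjusted p = 0.177 and 0.0618), and wrt-10 with 2.20 ± 0.50 and 1.31 ± 0.50 (limma adjusted p = 0.0541 and 0.136).

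These counts changed in most fits without a single library, which leave 1 library in a group. The calls over all genes fell in each of these fits as well. For nhr-10 mutants 2 genes were called without wild type replicate 1 or nhr-10 replicate 1, and 1 without either replicate 2, and only grd-10 was called in all 4 of these fits. For nhr-68 mutants the count was 2 without wild type replicate 1, 3 without wild type replicate 2, 5 without nhr-68 replicate 1 and 0 without nhr-68 replicate 2, where grd-10 had a limma adjusted p of 0.0609 and grd-13 of 0.0801.

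On B12 alone the mutants differed from wild type in more genes and in both directions. In nhr-10 mutants 7 of the 42 genes were higher (6.52% of all genes) and 8 lower (3.15% of all genes). In nhr-68 mutants 7 were higher (5.25% of all genes) and 9 lower (4.58% of all genes). The genes higher in both were the cluster, grl-21, grl-4, wrt-10 and grd-4. Those lower in both were wrt-4, wrt-6, wrt-8, wrt-9, grd-2, grd-11, grl-18 and grl-22, and grl-16 was called lower in nhr-68 mutants. Both comparisons rest on the same pair of wild type libraries. The called genes did not overlap between the groups, which adds no support, since the calls came from these same libraries.

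Among the ground-like genes higher in the mutants, grl-21 stood at 8.15 and 3.77 FPKM in wild type, 261 and 188 in nhr-10 mutants and 209.6 and 248 in nhr-68 mutants. The difference was 5.07 ± 0.71 (SE), adjusted p = 0.00237 for nhr-10 and 5.11 ± 0.71 (SE), adjusted p = 0.00165 for nhr-68 mutants in limma, and both calls held without any 1 of the libraries compared. Its neighbours cyb-1 and ssp-34, at 109 to 165 and 83.7 to 143 FPKM in wild type, were at 108 to 150 and 74.3 to 144 in the mutants. grl-4 (IV, 7309838 to 7310760) stood at 86.3 and 24.4 FPKM in wild type, 198 and 422 in nhr-10 mutants and 268 and 293 in nhr-68 mutants. Its wild type replicates lay far apart, and both lay below all mutant libraries. The limma difference was 2.62 ± 0.67 (SE), adjusted p = 0.031 in nhr-10 mutants and 2.58 ± 0.67 (SE), adjusted p = 0.0304 in nhr-68 mutants, and each call was kept only in the fit without wild type replicate 1.

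wrt-10 (II, 7533262 to 7534563), whose product acts from the epidermis on the quality of oocytes in worms, stood at 13.2 and 5.93 FPKM in wild type, 31.6 and 41.98 in nhr-10 mutants and 38.3 and 48.5 in nhr-68 mutants. All 4 mutant libraries lay above wild type. The limma difference was 1.92 ± 0.50 (SE), adjusted p = 0.0338 for nhr-10 and 2.15 ± 0.50 (SE), adjusted p = 0.0196 for nhr-68 mutants. grd-4 (X, 8501222 to 8502288), 184 bp downstream of grd-14, was near the detection limit, at 0.38 and 0.38 in wild type, 2.43 and 1.22 in nhr-10 mutants and 1.49 and 1.48 in nhr-68 mutants. It was higher in both (limma, 0.9997 ± 0.24 (SE), adjusted p = 0.0235, and 0.85 ± 0.24 (SE), adjusted p = 0.0416), while grd-14 itself stood at 324 and 279, 172 and 430.5, and 158 and 199 FPKM and was not called.

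Among the warthog genes lower in the mutants, wrt-4 (X, 15752257 to 15757269) stood at 348 and 330.0 FPKM in wild type, 46.1 and 101 in nhr-10 mutants and 35.6 and 51.3 in nhr-68 mutants. wrt-8 (V, 15342054 to 15344581) stood at 28.6 and 29.1, 2.65 and 4.25, and 2.35 and 2.89 in the same order. In both genes the wild type replicates lay close together and several-fold above the mutants. The limma differences for wrt-4 were -2.29 ± 0.58 in nhr-10 and -2.96 ± 0.58 in nhr-68 mutants (adjusted p = 0.0308 and 0.01), and for wrt-8 they were -2.77 ± 0.52 and -3.05 ± 0.52 (adjusted p = 0.00926 and 0.00568). wrt-6 (X, 3480250 to 3483666) went from 114 and 103 in wild type to 24.5 and 44.97 in nhr-10 and 17.5 and 28.8 in nhr-68 mutants, and wrt-9 (X, 1576637 to 1591320) from 26.7 and 33.1 to 6.93 and 12.2 and to 6.75 and 9.1. Both were lower in nhr-10 mutants (-1.67 ± 0.47 and -1.59 ± 0.40, limma adjusted p = 0.0452 and 0.0286) and in nhr-68 mutants (-2.22 ± 0.47 and -1.80 ± 0.40, limma adjusted p = 0.0138 and 0.0156).

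Groundhog and ground-like genes were among the lower ones too. grd-2 (V, 20609794 to 20613929) stood at 23.6 and 23.01 FPKM in wild type, 3.84 and 6.91 in nhr-10 mutants and 3.45 and 5.77 in nhr-68 mutants, with limma differences of -1.97 ± 0.57 and -2.15 ± 0.57 (adjusted p = 0.0475 and 0.034). grd-11 (V, 20356772 to 20365773) stood at 5.56 and 9.06, 0.61 and 1.64, and 0.67 and 1.01, with limma differences of -1.98 ± 0.39 and -2.15 ± 0.39 (adjusted p = 0.0108 and 0.007). In both genes the mutant libraries lay several-fold under wild type. grl-22 (III, 5413137 to 5414011) stood at 22.2 and 27.7 in wild type, 4.07 and 11.7 in nhr-10 mutants and 3.23 and 6.43 in nhr-68 mutants (limma -1.68 ± 0.46 and -2.20 ± 0.46, adjusted p = 0.0382 and 0.0122). Over all treatments its 6 wild type libraries, at 12.7 to 27.7 FPKM, lay above all 12 mutant libraries, at 3.23 to 11.7, which 0.347% of all genes showed. grl-18 was at 1.93 and 2.5, 0.68 and 1.08, and 0.43 and 0.9 (limma -0.78 ± 0.23 and -0.96 ± 0.23, adjusted p = 0.0487 and 0.0204).

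grl-16 (I, 572173 to 575120), the gene with the highest mean level of the 57, stood at 1237 and 1679 FPKM in wild type, 294 and 776 in nhr-10 mutants and 280.4 and 399.9 in nhr-68 mutants. Wild type was highest without overlap. The difference was called in nhr-68 mutants (-2.10 ± 0.54 (SE), adjusted p = 0.0294, limma) and missed the threshold in nhr-10 mutants (-1.59 ± 0.54, limma adjusted p = 0.0823), whose replicates lay apart. The nhr-68 and nhr-10 mutants were not shown to differ in it (limma -0.51 ± 0.54, adjusted p = 0.943). The nhr-68 call of grl-16 was lost in each fit without 1 of the libraries compared.

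The B12 counts also changed without single libraries, and so did the calls over all genes. For nhr-10 mutants 15 became 8 without wild type replicate 1, 3 without wild type replicate 2, 3 without nhr-10 replicate 1 and 14 without nhr-10 replicate 2, and grl-21, grd-3 and grd-10 were called in all 4. For nhr-68 mutants 16 became 9, 4, 4 and 11 in the corresponding fits, and grl-21, grd-3, grd-10 and grd-13 were called in all 4.

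With propionate added to B12, 4 of the 9 tested warthog genes were higher in nhr-10 mutants than in wild type and 0 were lower. Of the 42 genes 7 were higher (5.6% of all genes), namely wrt-1, wrt-2, wrt-3, wrt-10 and the grd cluster, and 1 was lower (1.59% of all genes), namely grl-30. In nhr-68 mutants 3 were higher (1.18% of all genes), namely wrt-10, grd-13 and grd-10, and 1 was lower (1.95% of all genes), again grl-30. The wild type libraries are shared between the comparisons. No called gene overlapped between the groups, which adds no support to calls made from these same libraries. Of the 5 warthog genes not called in nhr-10 mutants, wrt-8 (-1.58 ± 0.52, limma adjusted p = 0.0891) and wrt-5 (-0.49 ± 0.26, limma adjusted p = 0.276) had estimates below 0, and wrt-4, wrt-6 and wrt-9 had estimates above 0.

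wrt-10 stood at 17.3 and 7.65 FPKM in wild type, 99.2 and 248 in nhr-10 mutants and 68.9 and 48.6 in nhr-68 mutants. The difference was 3.65 ± 0.50 (SE), adjusted p = 0.00113 in nhr-10 and 2.22 ± 0.50 (SE), adjusted p = 0.0361 in nhr-68 mutants in limma. wrt-1 (II, 7530996 to 7533246) faces wrt-10 on chromosome II, with 15 bp between their 3' ends, and stood at 13.1 and 6.1 in wild type, 48.96 and 95.2 in nhr-10 mutants and 29.2 and 18.9 in nhr-68 mutants. It was higher in nhr-10 mutants (2.79 ± 0.58 (SE), adjusted p = 0.013, limma) and not called in nhr-68 mutants (1.29 ± 0.58, limma adjusted p = 0.244). wrt-2 (X, 3092395 to 3094349), on another chromosome, stood at 12.02 and 4.85, 51.2 and 112, and 35.2 and 20.7, with a limma difference of 3.14 ± 0.48 (SE), adjusted p = 0.00219 in nhr-10 mutants and 1.68 ± 0.48 (adjusted p = 0.0821) in nhr-68 mutants. In all 3 genes the highest value was that of the nhr-10 library that stood apart.

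Without that library wrt-10 still exceeded wild type by 2.99 and wrt-2 by 2.58 (limma adjusted p = 0.0212 and 0.0434), whereas for wrt-1 the adjusted p became 0.179. wrt-3 (IV, 9473633 to 9477456), which overlaps an annotated pseudogene over 1686 bp on the same strand, was at 3.04 and 2.23 FPKM in wild type and 5.52 and 8.6 in nhr-10 mutants (limma 1.13 ± 0.30 (SE), adjusted p = 0.0388), and without that library its adjusted p was 0.358. wrt-2 overlaps pccb-1, which codes for a propionyl-CoA carboxylase subunit, by 43 bp on opposite strands. pccb-1 ranged from 59.6 to 113 FPKM in wild type and from 74.5 to 159 in the mutants. Whether reads were counted by strand is not given in the sources used here.

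grl-30 (V, 3556286 to 3556804) lies among other ground-like genes on chromosome V, with grl-29 and grl-31 next to it and grl-28 and grl-27 further away. It was at 1.73 and 3.63 FPKM in wild type with propionate, 0.51 and 0 in nhr-10 mutants and 0 and 0.16 in nhr-68 mutants. It was lower in both mutants (limma -1.53 ± 0.38 (SE), adjusted p = 0.0283, and -1.72 ± 0.38 (SE), adjusted p = 0.0311). At an estimated 0 to 39 fragments in a library it is measured coarsely. These genes spanned a wide range of levels, from grl-29, above 0 in 1 library only (0.15 FPKM), to grl-27 with a mean of 96.2 FPKM.

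The nhr-10 count of 8 became 10 without wild type replicate 1, 6 without wild type replicate 2, 12 without nhr-10 replicate 1, and 4 without nhr-10 replicate 2, where wrt-2, wrt-10, grd-10 and grd-13 remained. The nhr-68 count of 4 became 0 without wild type replicate 1, 3 without wild type replicate 2, 0 without nhr-68 replicate 1 and 2 without nhr-68 replicate 2. The calls over all genes changed as well when single libraries were left out. With only the compared groups in the fit neither comparison had a call among the 42.

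**Figure D4:**
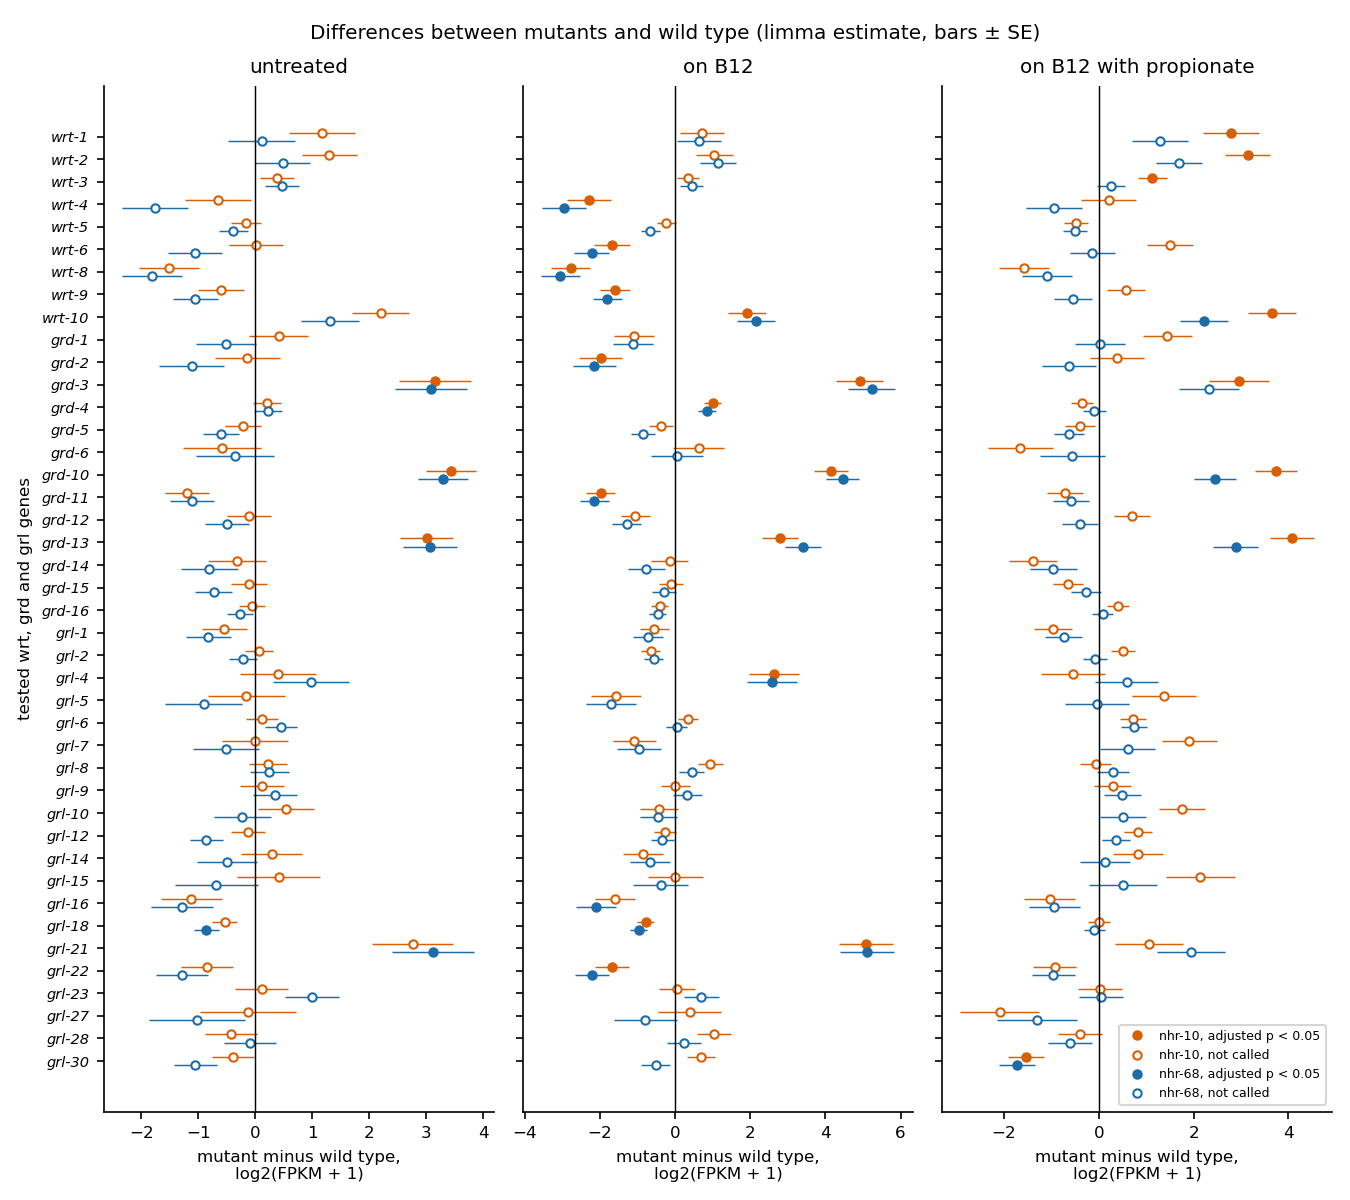
Difference of nhr-10 (orange) and nhr-68 (blue) mutants from wild type for the 42 tested genes under each treatment, as the limma estimate on log2(FPKM + 1) with a bar of 1 SE to each side; filled points were called at an adjusted p under 0.05. On B12 filled points lie on both sides of 0, from -3.05 for wrt-8 to 5.23 for grd-3, both in nhr-68 mutants.

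Some Hedgehog-related genes of nhr-10 mutants changed with propionate. Of the 42 genes 6 rose with propionate on B12 (4.55% of all genes did), namely wrt-1, wrt-2, wrt-6, wrt-10, grl-7 and grl-10, and 2 fell (2.68% of all genes), namely grd-4 and grl-30. In wild type 0 of the 42 were called (0.411% of all genes were), with 8 at an unadjusted limma p under 0.05 (19%, against 19% of all genes). In nhr-68 mutants 0 were called (0.417% of all genes), with 2 at an unadjusted limma p under 0.05 (4.76%, against 9.28%). Tested as a difference between the responses of nhr-10 mutants and wild type, 6 of the 42 genes were called. The mutants' response was higher for wrt-6, wrt-9 and grl-7 (3.53% of all genes) and lower for grl-21, grl-30 and grd-4 (4.96% of all genes). For nhr-68 mutants against wild type 0 of the 42 were called (0% of all genes), with 11 at an unadjusted limma p under 0.05 (26.2%, against 11.4% of all genes).

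wrt-6 stood at 24.5 and 44.97 FPKM in nhr-10 mutants on B12 and at 133 and 131 with propionate, while in wild type it stood at 114 and 103 and then at 69.1 and 30.4. The nhr-10 replicates with propionate agreed closely and lay above those on B12, and the wild type replicates with propionate lay below those on B12. The nhr-10 response was 1.96 ± 0.47 (SE), adjusted p = 0.0332, and it exceeded the wild type response by 3.17 ± 0.67 (SE), adjusted p = 0.0265 (limma). grl-7 (V, 11344828 to 11347012), whose product is a cuticle-associated protein cleared with the help of PTR-18 in worms, stood at 43.9 and 72.3 on B12 and 209 and 323 with propionate in nhr-10 mutants, and at 152 and 94.6 and then 131 and 35.5 in wild type. Its nhr-10 response was 2.19 ± 0.58 (SE), adjusted p = 0.0427, and exceeded that of wild type by 2.99 ± 0.82 (SE), adjusted p = 0.0451 (limma). Both nhr-10 libraries with propionate lay above both on B12, while the wild type groups overlapped. wrt-9 stood at 6.93 and 12.2 and then 30.9 and 21.6 in nhr-10 mutants and at 26.7 and 33.1 and then 25.9 and 11.1 in wild type, and its responses differed by 2.16 ± 0.56 (SE), adjusted p = 0.0394 (limma). Its nhr-10 libraries with propionate were the higher ones and its wild type libraries with propionate the lower ones, without overlap.

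grl-21 moved the other way. In nhr-10 mutants it stood at 261 and 188 FPKM on B12 and 77.4 and 90.8 with propionate, and in wild type at 8.15 and 3.77 and then 14.6 and 105. The responses differed by -4.01 ± 1.01 (SE), adjusted p = 0.0371 (limma), and the wild type value with propionate rested largely on replicate 2. grl-30 stood at 2.39 and 6.66 and then 0.51 and 0 in nhr-10 mutants and at 2.12 and 2.15 and then 1.73 and 3.63 in wild type. grd-4 stood at 2.43 and 1.22 and then 0.24 and 0 in nhr-10 mutants, and in wild type at 0.38 and 0.38 and then 0.37 and 0.49. In both genes the wild type groups overlapped. Both fell in nhr-10 mutants (limma -2.05 ± 0.38 (SE), adjusted p = 0.0114, and -1.31 ± 0.24 (SE), adjusted p = 0.0109) and differed from wild type in their response (limma -2.23 ± 0.53 (SE), adjusted p = 0.0347, and -1.36 ± 0.34 (SE), adjusted p = 0.0365).

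The other warthog genes that rose in nhr-10 mutants were wrt-10, from 31.6 and 41.98 FPKM on B12 to 99.2 and 248 with propionate, wrt-1, from 12.3 and 18.3 to 48.96 and 95.2, and wrt-2, from 12.9 and 21.9 to 51.2 and 112. Their limma responses were 2.08 ± 0.50, 2.12 ± 0.58 and 2.10 ± 0.48 (adjusted p = 0.0325, 0.0473 and 0.028). grl-10 (V, 7774545 to 7775759) stood at 9.1 and 11.9 on B12 and 33.2 and 51.4 with propionate, a limma response of 1.89 ± 0.49 (SE), adjusted p = 0.041. For these 4 genes the test of the difference from the wild type response was not passed (limma adjusted p between 0.0678 and 0.132).

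Leaving out any of several libraries removed calls here, and none was kept without the nhr-10 library with propionate that stood apart. Without it the response of nhr-10 mutants had 0 calls among the 42 and 65 over all genes, and the difference from the wild type response had 0 and 60. Without nhr-10 replicate 1 on B12 1 gene was called (grl-30), without replicate 2 on B12 5, and without replicate 1 with propionate 8. The test of the difference had 3 and 0 calls without wild type replicates 1 and 2 on B12, 19 and 0 without wild type replicates 1 and 2 with propionate, 1 and 9 without nhr-10 replicates 1 and 2 on B12, and 8 without nhr-10 replicate 1 with propionate. In wild type alone 3 genes were called in the propionate response without wild type replicate 1 with propionate. With only the compared groups in the fit there were 0 calls among the 42 in the response of nhr-10 mutants and in its difference from wild type.

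None of the 42 genes was called for B12 alone in any genotype. The share of all genes called was 0.616% in wild type, 0.783% in nhr-10 mutants and 0.751% in nhr-68 mutants. An unadjusted limma p under 0.05 was seen for 4 of the 42 in wild type (8.75% of all genes), 9 in nhr-10 mutants (13.1%) and 1 in nhr-68 mutants (8.45%). In nhr-10 mutants the libraries of 18 of the 42 were lower on B12 without overlap (29.9% of all genes) and those of 6 higher (11.8%). There wrt-2 stood at 49.6 and 51.2 FPKM untreated and 12.9 and 21.9 on B12, and grd-1 at 19.6 and 16.6 and then 4.87 and 8.3. The limma differences were -1.53 ± 0.48 and -1.37 ± 0.52 (adjusted p = 0.241 and 0.321), and the smallest adjusted p among the 42 in this comparison was 0.126. The B12 response was not shown to differ between either mutant and wild type in any of the 42 (0.0257% of all genes for nhr-10 and 0.00642% for nhr-68 mutants), with 6 (14.3%, against 8.82% of all genes) and 1 (2.38%, against 5.7%) at an unadjusted limma p under 0.05.

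None of the 42 genes was called between animals on B12 with propionate and untreated animals, whether in wild type (0.295% of all genes called), in nhr-10 mutants (1.43%) or in nhr-68 mutants (0.475%). An unadjusted limma p under 0.05 was found for 3 of the 42 in wild type (7.14%, against 6.11% of all genes), 4 in nhr-10 mutants (9.52%, against 15%) and 1 in nhr-68 mutants (2.38%, against 4.4%). In nhr-10 mutants wrt-8 stood at 7.83 and 7.83 FPKM untreated and 5.2 and 1.42 with B12 and propionate, and grd-6 at 198 and 99.4 and 178 and 32.7.

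The mutants were not shown to differ from each other in any of the 42 genes. The share of all genes called was 0.559% untreated, 0.141% on B12 and 1.28% with propionate. An unadjusted limma p under 0.05 was found for 2 of the 42 untreated (4.76%, against 18.8% of all genes), 1 on B12 (2.38%, against 5.65%) and 14 with propionate (33.3%, against 18.3%). With propionate, wrt-1 stood at 48.96 and 95.2 FPKM in nhr-10 and 29.2 and 18.9 in nhr-68 mutants (limma -1.50 ± 0.58, adjusted p = 0.211), and wrt-10 at 99.2 and 248 and 68.9 and 48.6 (limma -1.43 ± 0.50, adjusted p = 0.184). Without nhr-10 replicate 1 with propionate 1 gene was called there. For grd-10 on B12 the mutants differed by 0.30 with a 95% interval from -0.66 to 1.26 on the log2 scale, and for grl-21 by 0.04, from -1.50 to 1.58.

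Of the 20 tested genes that were called nowhere, several were abundant. grd-5 (V, 8619032 to 8619870) ranged from 428 to 1019 FPKM over the 18 libraries, grd-14 (X, 8500021 to 8501037) from 91.9 to 475 and grd-6 (V, 9221866 to 9224354) from 32.7 to 352. grl-5 (V, 4412748 to 4414663) ranged from 40.99 to 315 and grl-27 (V, 3575055 to 3575859) from 10.05 to 259. In wild type grd-5 was between 791 and 1019 FPKM with a median of 903, and in nhr-68 mutants between 428 and 681 with a median of 592, so that all 6 nhr-68 libraries lay below all 6 wild type ones. Its largest difference from wild type was -0.85 ± 0.32 on B12 (limma adjusted p = 0.111). grl-15 (III, 12232632 to 12236014) had a lowest, median and highest level of 17.97, 44.9 and 136 FPKM in wild type, 25.9, 87.6 and 185 in nhr-10 mutants and 25.98, 35.6 and 58.9 in nhr-68 mutants, with wide overlap. The uncalled genes nearest to the threshold were grd-1 in the difference between the propionate responses of nhr-10 mutants and wild type (2.53 ± 0.74, limma adjusted p = 0.0525) and grd-12 in nhr-68 mutants against wild type on B12 (-1.28 ± 0.38, limma adjusted p = 0.0531). grd-12 was at 8.25 and 10.7 FPKM in wild type on B12 and 2.63 and 4.05 in nhr-68 mutants. grl-1 was between 3.71 and 5.16 FPKM in wild type and between 1.15 and 3.35 in nhr-68 mutants, again without overlap, and was not called. The share of all genes that separate nhr-68 from wild type libraries as grd-5 and grl-1 do was not determined. grl-6, grl-8, grl-9, grl-12, grl-14, grl-28, grd-15 and grd-16 were low, none of them above 7.18 FPKM in any library. grl-2, which is used as a marker of the excretory duct and pore cells, stayed between 0.72 and 2.27 FPKM.

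A few low genes stood out in single libraries. grl-23 (V, 12575191 to 12576897) was at 2.59 FPKM in untreated nhr-68 replicate 2 and at 1.62 in nhr-68 replicate 2 on B12, against 0 to 0.17 in the other 16 libraries. grl-20 reached 1.72 and 0.59 FPKM in the same libraries, against at most 0.32 elsewhere, and grl-25 reached 0.8 and 0.43, against at most 0.19 elsewhere. These genes lie on different chromosomes (V, IV and III) and were singled out after their values were seen.

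Among the receptors, the patched and patched-related genes were called on B12 mostly in the lower direction. The list held 32 genes of the patched family, of which 30 were in the table and 28 were tested. In nhr-10 mutants on B12 2 of these were higher than in wild type (6.52% of all genes) and 7 lower (3.15% of all genes), with a median of -0.50 against 0.08 for all genes. In nhr-68 mutants 2 were higher (5.25% of all genes) and 10 lower (4.58% of all genes), with a median of -0.71 against 0.00 for all genes. ptr-8 had the largest difference of the list, from a wild type mean of 0.65 FPKM to 15.5 in nhr-10 and 16.95 in nhr-68 mutants (limma 3.35 ± 0.47 and 3.47 ± 0.47, adjusted p = 0.00245 and 0.00144). ptr-2 was lower in nhr-10 mutants (-0.94 ± 0.20, limma adjusted p = 0.0159) and nhr-68 mutants (-1.01 ± 0.20, limma adjusted p = 0.00997). ptr-10 stood out with propionate, where it was higher in nhr-10 mutants than in wild type (2.32 ± 0.35, limma adjusted p = 0.00189). ptr-13 was higher in both mutants on B12 as well, and ptr-1, ptr-2, ptr-11, ptr-16, ptr-17, ptr-18 and ptc-3 were lower in both. ptr-18, which helps to clear GRL-7 from the extracellular space, went from a mean of 74.1 FPKM in wild type to 17.2 in nhr-10 and 15.1 in nhr-68 mutants (limma -2.14 ± 0.47 and -2.23 ± 0.47, adjusted p = 0.0175 and 0.0125). ptr-24 was lower in nhr-68 mutants, untreated (-0.62 ± 0.17, limma adjusted p = 0.0477) and on B12 (-0.57 ± 0.17, limma adjusted p = 0.04997).

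ptc-3, a patched homologue needed for moulting, stood at 48.1 and 51.8 FPKM in wild type on B12, 15.2 and 19.99 in nhr-10 mutants and 15.6 and 20.5 in nhr-68 mutants. In nhr-10 mutants ptc-3 rose with propionate to 52.4 and 53.1, with a limma response of 1.54 ± 0.41 and an adjusted p of 0.044. So did 4 more patched family genes (ptr-4, ptr-10, ptr-11 and ptr-19), while 0 fell (4.55% of all genes rose and 2.68% fell). Whether these calls hold without the nhr-10 library that stood apart was not determined. ptc-1, which acts in the germ line, stood between 33.1 and 64.1 FPKM in all libraries and was called in no comparison. che-14, a Dispatched-related gene of epithelia, was called only in the difference between the propionate responses of nhr-10 mutants and wild type (2.27 ± 0.65, limma adjusted p = 0.049).

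The 2 Hog-domain genes outside the wrt, grd and grl families were called in different comparisons. hog-1 stood at 44.8 and 41.2 FPKM in wild type on B12, 7.59 and 20.3 in nhr-10 mutants and 9.92 and 13.3 in nhr-68 mutants, and was lower in both (limma -1.70 ± 0.45 and -1.81 ± 0.45, adjusted p = 0.0352 and 0.0253). qua-1, which is needed for moulting, was higher in nhr-10 mutants than in wild type with propionate, at 61.3 and 92.99 against 34.6 and 11.8 (limma 1.84 ± 0.51, adjusted p = 0.0478). tra-1, the worm's Gli homologue, which acts in sex determination, stood between 11.51 and 20.6 FPKM in all libraries, and nhr-23, which drives moulting genes, between 23.06 and 51.07. Neither was called in any comparison.

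Moulting genes, which share a tissue and a timing with many Hedgehog-related genes, were called in the same comparisons. Of the 18 moulting and apical matrix genes, all tested, 7 were higher (6.52% of all genes) and 3 lower (3.15%) in nhr-10 mutants than in wild type on B12. In nhr-68 mutants 8 were higher (5.25%) and 4 lower (4.58%). With propionate 9 were higher (5.6%) and 0 lower (1.59%) in nhr-10 mutants, and 7 higher (1.18%) and 0 lower (1.95%) in nhr-68 mutants. The shares of all genes given for a comparison hold for the other lists below as well. In the propionate response of nhr-10 mutants 11 rose (4.55% of all genes) and 0 fell (2.68%), with a median of 1.63 against 0.04 for all genes. All 6 vitellogenin genes fell. This response includes the nhr-10 library that stood apart, and it stood apart in the moulting and vitellogenin lists themselves. How many genes of any list here would be called without that library was not determined. On B12 2 of the vitellogenin genes were higher in nhr-10 mutants than in wild type and 4 in nhr-68 mutants. fbn-1, a fibrillin-like matrix gene, was higher in the mutants in all 6 comparisons with wild type, by between 1.73 and 3.29 on the log2 scale. With propionate lpr-3, a lipocalin of the apical matrix, went from a mean of 12.7 FPKM in wild type to 188 in nhr-10 mutants (limma 3.81 ± 0.48, adjusted p = 0.000692). Over the 6 libraries of each genotype, the moulting sum ran from 468 to 1241 FPKM in wild type, 420.2 to 1978 in nhr-10 and 468 to 856 in nhr-68 mutants, and the vitellogenin sum from 629 to 3519, from 104 to 8130 and from 2880 to 9653. Of 19 cuticle collagen genes 12 rose and 2 fell in the propionate response of nhr-10 mutants, and on B12 6 were higher and 5 lower in nhr-10 mutants and 6 higher and 4 lower in nhr-68 mutants than in wild type. Of 14 epidermal and seam regulators 5 rose in that response and 0 fell. On B12 1 of them was higher and 2 were lower in nhr-10 mutants than in wild type, and 1 was higher and 1 lower in nhr-68 mutants. The higher one was the GATA factor gene elt-3 in both (limma 2.20 ± 0.32 and 2.01 ± 0.32, adjusted p = 0.00265 and 0.00366). The lower ones were bed-3 in both (limma -2.04 ± 0.54 and -2.35 ± 0.54, adjusted p = 0.0338 and 0.0177) and lin-42 in nhr-10 mutants (limma -1.26 ± 0.36, adjusted p = 0.0467). Markers of body wall muscle (6), pharynx (6), neurons (7) and germ line (9) had 0 limma calls in the 6 comparisons of a mutant with wild type and in the propionate response of nhr-10 mutants. Of 8 intestinal markers 1 was higher and 1 lower on B12 in nhr-10 mutants, and 2 were higher and 1 lower on B12 in nhr-68 mutants. In untreated nhr-68 mutants 1 was lower (3.58% of all genes). Of 10 sperm markers 3 were lower in untreated nhr-68 mutants and 1 in each mutant with propionate, and none was higher in the 6 comparisons. The part of tissue makeup in the differences of wrt, grd and grl genes was not tested, nor was that of moulting stage beyond the fit with the axes as covariates.

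**Figure D5:**
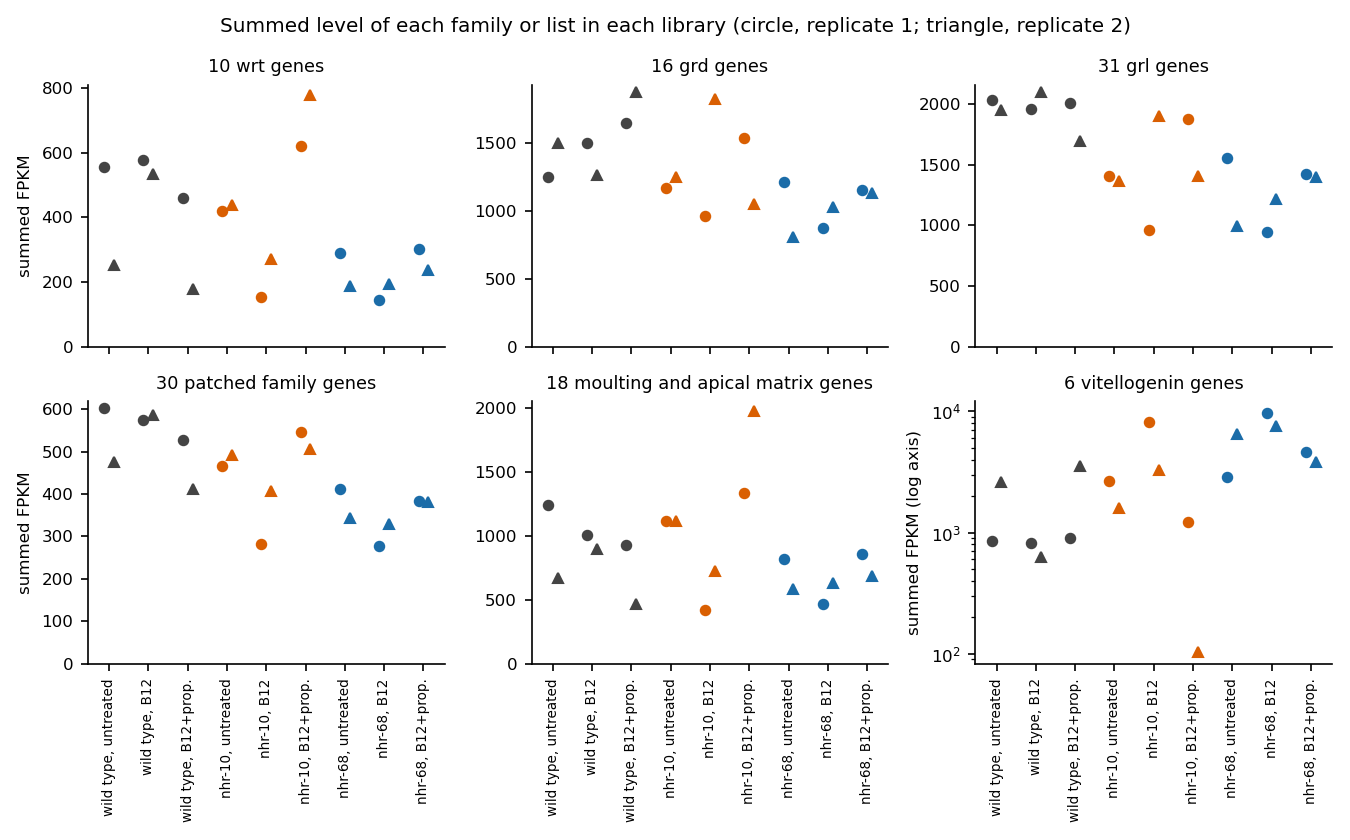
Summed FPKM of the wrt, grd and grl families and of the patched, moulting and vitellogenin lists in each library (circle, replicate 1; triangle, replicate 2; the vitellogenin axis is logarithmic, the others start at 0). The wrt sum ran from 179 to 579 in wild type, 153 to 779 in nhr-10 and 145 to 301 in nhr-68 mutants.

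Summed over each family, the grl genes stood between 1695 and 2104 FPKM in the 6 wild type libraries and between 949 and 1554 in the 6 nhr-68 mutant libraries, without overlap. In nhr-10 mutants the grl sum ran from 959 to 1900, within reach of wild type. The grd sum ran from 1246 to 1876 in wild type and from 805 to 1210 in nhr-68 mutants, also without overlap, and from 959 to 1825 in nhr-10 mutants. These sums are carried by the few most abundant genes, grl-16 in the first and grd-5 in the second. How often sums of other genes separate in this way was not determined. The wrt sums overlapped between all genotypes.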

How the data were processed

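Total RNA from whole L4 animals was sequenced in 18 libraries. Per the submitters' processing notes, HISAT, Bowtie2 and RSEM were used with the genome build WBcel235, with versions and strand settings not stated. The authors deposited 1 table of FPKM values for 20953 genes, with no counts, so no count model was used. Columns were assigned by their sample titles. Gene positions came from the Ensembl annotation of WBcel235 (release 115). limma 3.58.1 in R 4.3.3 was run on log2(FPKM + 1), with a mean for each of 9 groups, a trend in the variance prior and genes at 1 FPKM or more in at least 2 libraries, over 18 pairwise comparisons and 4 differences of responses. No replicate block was used. The script was tested on simulated data. Genes named in the text were all members called in any comparison, the 10 highest members, those with the widest ranges and replicate differences, the untested members, genes with the smallest adjusted p in the other lists, and the targeted genes; ptr-13, ptr-18, ptr-24 and neighbouring genes were named after their values were seen. Members and lists were chosen with earlier results of these data known. Alternatives were a pseudocount of 0.1, no filter, median-ratio scaling, the replicate number as a block, 2 stage axes as covariates, the compared groups alone, and leaving out each library. No sequences were used, so promoter motifs were not searched.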

Additional observations from a re-analysis of the deposited data

Results flagged for a closer look

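For 6 of the 42 tested genes the propionate response on B12 differed between nhr-10 mutants and wild type by a test of the difference itself (limma, adjusted over all genes), which is why they are listed here. The response of the mutants exceeded that of wild type by 2.99 on the log2 scale for grl-7, by 3.17 for wrt-6 and by 2.16 for wrt-9. For grl-21 the difference was -4.01, for grl-30 -2.23 and for grd-4 -1.36. The 6 genes were chosen by this test on these same libraries, so the directions of their libraries add no support. In 3 of them the wild type libraries moved against the mutant libraries without overlap, wrt-6 (114 and 103 FPKM on B12 and 69.1 and 30.4 with propionate in wild type, 24.5 and 44.97 and 133 and 131 in nhr-10 mutants), wrt-9 (26.7 and 33.1 and 25.9 and 11.1 in wild type, 6.93 and 12.2 and 30.9 and 21.6 in nhr-10 mutants) and grl-21 (8.15 and 3.77 and 14.6 and 105 in wild type, 261 and 188 and 77.4 and 90.8 in nhr-10 mutants). None of the 6 differences passed without replicate 2 of the nhr-10 mutants with propionate (limma adjusted p between 0.0937 and 0.159).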

How the results depend on the processing

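The replicate numbers were not shown to pair the libraries: deviations of same-numbered libraries correlated between -0.38 and 0.56 over 36 pairs of groups, 15 of them over 0.1. With the replicate number as a block 64 of 65 calls were kept, over 22 genes, and no count moved by over 1.5 times. Median-ratio scaling kept 65, a pseudocount of 0.1 59, no filter 46, only the compared groups 30 and the stage axes 0, with 57 calls lost in the same direction and 8 reversed. With the stage axes 0 of the 42 were called in each comparison. The reversed values were -0.17 for grl-7 and -0.085 for wrt-1 (propionate response of nhr-10 mutants), -0.19 for wrt-10 and 0.12 for grl-22 (nhr-10 mutants against wild type on B12), -0.055 for wrt-10 and -1.34 for wrt-1 (the same with propionate), and -0.22 and -0.16 for wrt-10 (nhr-68 mutants against wild type on B12 and with propionate). The cause was not tested. Median-ratio scaling called 1 gene in the propionate response of wild type. No filter gave 5 in the propionate response of nhr-10 mutants, 3 in its difference from wild type and 8 in nhr-10 mutants against wild type on B12. Only the compared groups gave 0 in the propionate response of nhr-10 mutants, in its difference from wild type and in both mutants against wild type with propionate. In untreated nhr-68 mutants that setting gave 3, and in untreated nhr-10 mutants 4 against 3 in the main fit. On B12 it gave 10 against 15 for nhr-10 and 20 against 16 for nhr-68 mutants compared with wild type. Without single libraries, where the lone library of a group was assumed to vary like the others, counts ran from 0 to 3 (propionate response of wild type), 0 to 8 (of nhr-10 mutants), 0 to 19 (its difference from that of wild type), 0 to 1 (the same difference for nhr-68 mutants), 1 to 2, 3 to 14 and 4 to 12 (nhr-10 mutants against wild type untreated, on B12 and with propionate), 0 to 5, 4 to 11 and 0 to 3 (nhr-68 mutants), and 0 to 1 (between mutants with propionate). Of the 65 calls 12 were kept in all such fits and 10 in none. Those kept in none were grl-7 and grl-10 (propionate response of nhr-10 mutants), and grd-3 untreated and grd-2 on B12 (nhr-10 mutants against wild type). For nhr-68 mutants against wild type they were grl-18 untreated, grl-16, grd-2 and grd-4 on B12, and wrt-10 and grl-30 with propionate. The median over all genes differed from 0 by over 0.1 in the B12 response of nhr-10 mutants (-0.12), in untreated nhr-10 mutants against wild type (0.11), and between mutants untreated (-0.16) and with propionate (-0.12). Genes under about 1 FPKM rest on few fragments.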
